A study of Homo sapiens with 6 samples.

Results

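YAP1 and WWTR1 (the gene for TAZ), the DNA-binding factor TEAD1, the targets CTGF, CYR61 and ANKRD1, and the pathway genes AMOTL2, AMOTL1, AJUBA and LATS2 were followed after depletion of PAX9 in MCF10A cells, a line of human breast epithelial cells. These 10 genes were chosen with earlier results of these data known. They were taken by symbol, as exact matches in the gene column. Each was found on 1 row of a table that holds 26822 gene symbols. Cells were transfected with 30 nM of a non-targeting siRNA (siNT) or of siRNAs against PAX9 (siPAX9) for 72 hours, and each group consisted of 3 samples. The labels do not say whether the 3 samples of a group came from separate cultures. The authors combined the 3 libraries of a group into 1 FPKM per locus (a fragment count scaled to transcript length and to the number of mapped fragments), so no value per sample, error or test over replicates was computed here, and the number of reads behind an FPKM is unknown. Every difference below is therefore a description of 2 combined values. In such bulk RNA, a smaller number of cells of a type and less RNA per cell cannot be told apart.

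YAP and TAZ are coactivators at the end of the Hippo pathway. The kinases LATS1 and LATS2 phosphorylate them and hold them in the cytoplasm, and when LATS activity is low they enter the nucleus and bind TEAD factors on DNA. CTGF and CYR61, secreted matricellular proteins of the CCN family, and ANKRD1, an ankyrin repeat protein, are the targets most often used as readouts. LATS2 and AMOTL2 are themselves targets that restrain YAP, so part of the pathway is a negative feedback loop. In breast epithelial cells the pathway is known for its response to cell density, cell shape and stiffness of the substrate.

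TEAD factors recognise the sequence GGAATG, which reads CATTCC on the other strand. To show where this sequence lies, exact matches on both strands were searched in RefSeq promoter windows (GRCh38.p14, 250 bases before to 50 bases after each start), which were placed on hg19, the build of the deposited table, by exact match of their 300 bases. Windows were found for 8 of the 10 genes. CYR61 and TEAD1 had none. At least 1 match was present in the windows of 6 of the 8 genes, namely CTGF, ANKRD1, AMOTL2, AJUBA, LATS2 and YAP1. Over all 35116 windows of the reference, 14.0% held the motif, and 16.7% of the 27305 symbols had it in at least 1 window. CTGF had 3 matches, a number reached or exceeded by 0.128% of all windows, and ANKRD1 had 2, reached or exceeded by 1.37%. No match was found for AMOTL1 or WWTR1. A match is a description of these letters and not of binding. The 250 bases before the start of the 3 genes CTGF, ANKRD1 and AMOTL2 are shown because they are targets with matches upstream, with the motif in capitals.
CTGF (hg19 chr6:132272513-132272762, minus strand): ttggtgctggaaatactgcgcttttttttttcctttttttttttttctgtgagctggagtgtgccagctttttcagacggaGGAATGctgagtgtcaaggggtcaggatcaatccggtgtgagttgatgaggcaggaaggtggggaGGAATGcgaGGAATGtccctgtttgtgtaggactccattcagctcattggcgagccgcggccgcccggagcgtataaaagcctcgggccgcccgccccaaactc
ANKRD1 (hg19 chr10:92680845-92681094, minus strand): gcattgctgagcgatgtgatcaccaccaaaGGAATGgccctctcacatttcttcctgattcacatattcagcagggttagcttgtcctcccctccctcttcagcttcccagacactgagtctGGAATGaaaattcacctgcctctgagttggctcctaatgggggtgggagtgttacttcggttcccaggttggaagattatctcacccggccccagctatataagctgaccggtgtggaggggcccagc
AMOTL2 (hg19 chr3:134093290-134093539, minus strand): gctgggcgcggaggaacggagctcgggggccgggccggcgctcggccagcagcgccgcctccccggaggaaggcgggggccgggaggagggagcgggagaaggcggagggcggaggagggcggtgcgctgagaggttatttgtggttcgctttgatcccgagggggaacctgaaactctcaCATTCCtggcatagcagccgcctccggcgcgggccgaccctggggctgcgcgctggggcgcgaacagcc
For AJUBA, LATS2 and YAP1, the 30 bases around the match are shown for comparison.
AJUBA (hg19 chr14:23446093-23446122, minus strand): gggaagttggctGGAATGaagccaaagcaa
LATS2 (hg19 chr13:21635699-21635728, minus strand): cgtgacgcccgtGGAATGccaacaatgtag
YAP1 (hg19 chr11:101981004-101981033, plus strand): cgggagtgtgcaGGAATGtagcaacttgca
The motif in CTGF began at -169, -104 and -95 from the start, and the last pair was separated by 3 bases. In ANKRD1 it began at -220 and -128, in YAP1 at -162 and in AJUBA at -59, all on the gene's own strand. In AMOTL2 it lay on the opposite strand from -69 to -64. For AJUBA and AMOTL2 the match was at 1 of 2 annotated starts, the one inside the locus, and the outer start of each had none. The LATS2 match lay within the transcript, at bases 10 to 15 after the start.

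**Figure D1:**
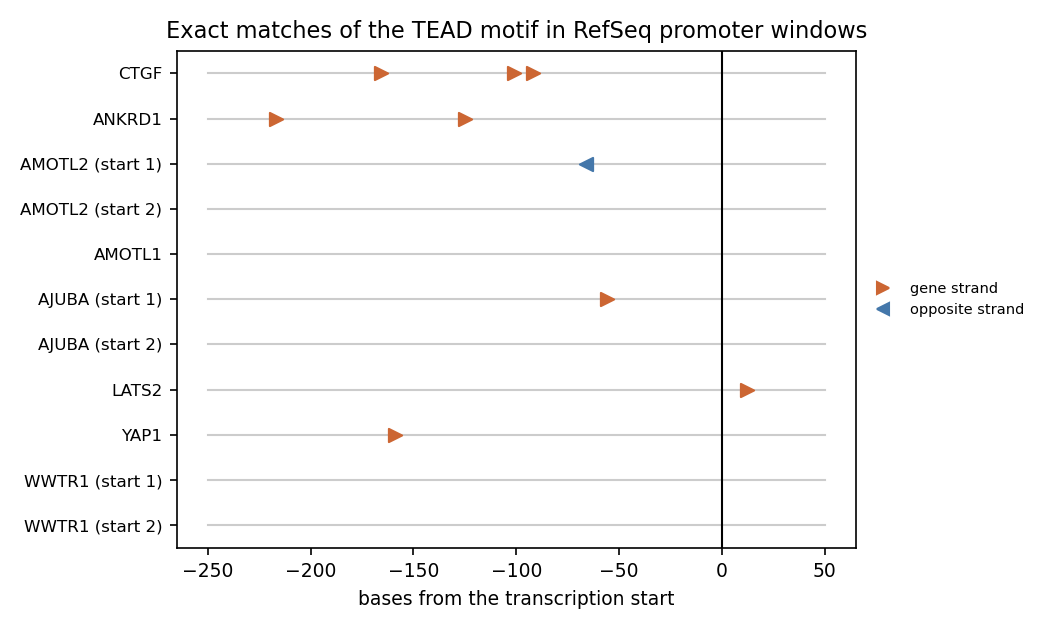
Positions of exact GGAATG matches (triangles, pointing along the strand of the match) in the RefSeq promoter window of each start, in bases from the transcription start (vertical line). Genes with several starts have a line for each, numbered by position on the chromosome. CTGF holds 3 matches and ANKRD1 2, while AMOTL1 and WWTR1 hold none.

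The knockdown was seen in the table, where PAX9 had 2.80 FPKM in siNT and 0.325 FPKM in siPAX9. The 8 breast epithelial markers examined all had at least 25.3 FPKM in both groups, KRT5 (1558 FPKM in siNT and 1807 FPKM in siPAX9) and KRT17 (1718 and 2088 FPKM) being the most abundant. Of these 8 markers, CDH1, which encodes E-cadherin, differed by more than 2-fold, with 45.3 FPKM in siNT and 124.4 FPKM in siPAX9. Gene symbols with at least 1 FPKM in the higher group numbered 13622, and 15.0% of them differed at least 2-fold between the groups, 7.75% as higher and 7.22% as lower in siPAX9. Their median log2 change was -0.07.

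**Figure D2:**
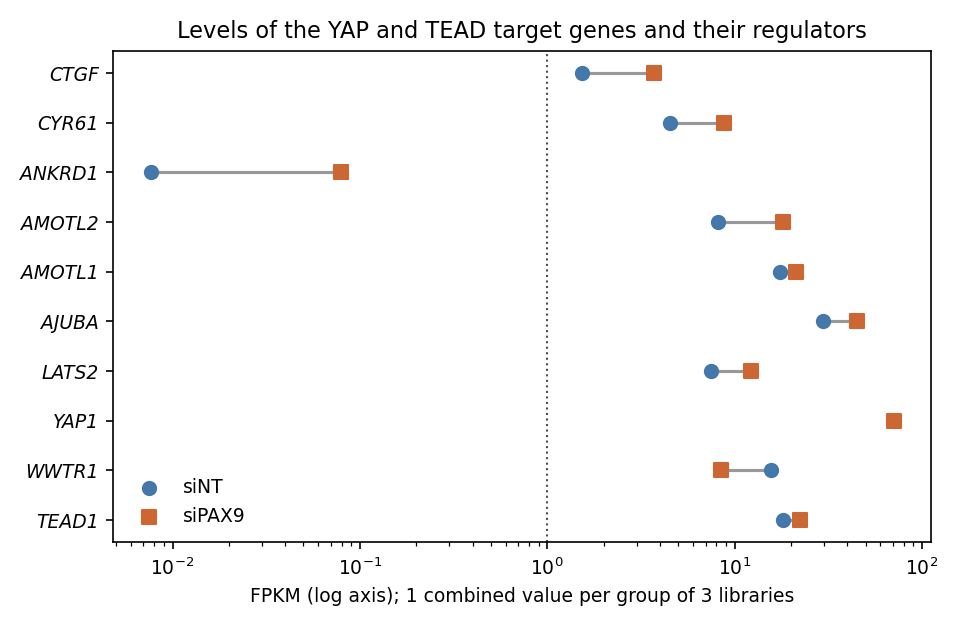
FPKM of each of the 10 genes in siNT (circles) and siPAX9 (squares) on a log axis, 1 combined value per group of 3 libraries, with the dotted line at 1 FPKM. CTGF, CYR61, AMOTL2, AJUBA and LATS2 lie to the right in siPAX9, WWTR1 lies to the left, the YAP1 symbols coincide, and ANKRD1 is below 0.1 FPKM in both groups.

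YAP1 (chr11:101981192-102104247, plus strand) was the most abundant of the 10 genes. It had 70.7 FPKM in siNT and 71.1 FPKM in siPAX9, a log2 change of 0.0081. WWTR1 (chr3:149235022-149421060, minus strand), the paralog of YAP1, had 15.6 FPKM in siNT and 8.45 FPKM in siPAX9, a log2 change of -0.88. WWTR1 was the only gene among the 9 expressed members with a lower value in siPAX9, 1.84-fold below siNT and short of a 2-fold difference. A lower log2 change than that of WWTR1 was found for 9.03% of the 13622 gene symbols. YAP1 thus exceeded WWTR1 4.55-fold in siNT and 8.42-fold in siPAX9, and the FPKM of the pair summed to 86.3 in siNT and 79.6 in siPAX9. The annotated WWTR1-AS1 lies on the opposite strand within the WWTR1 locus. Transcripts are also annotated on the opposite strand within or across CTGF, LATS2 (LATS2-AS1), AMOTL1, YAP1 and TEAD1, and on the same strand another protein-coding gene model overlaps AJUBA and a transcribed pseudogene, RPL39P5, overlaps AMOTL2. Whether counting used strand is not stated, so reads of the overlapping transcripts cannot be told apart.

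TEAD1 (chr11:12695969-12966284, plus strand), which carries YAP and TAZ to DNA, had 18.0 FPKM in siNT and 22.3 FPKM in siPAX9, with a log2 change of 0.31. The other family members lay on both sides of their siNT level by less than 2-fold. TEAD2 had 10.6 FPKM in siNT and 8.86 FPKM in siPAX9. TEAD3 had 7.21 FPKM in siNT and 9.68 FPKM in siPAX9. TEAD4 had 13.0 FPKM in siNT and 8.67 FPKM in siPAX9, the largest difference of the 4 on the log2 scale (-0.59). The 4 TEAD genes together had 48.9 FPKM in siNT and 49.5 FPKM in siPAX9. Within that sum the share of TEAD1 was 36.9% in siNT and 45.0% in siPAX9, and the share of TEAD4 was 26.7% and 17.5%. No error can be put on these shares.

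**Figure D3:**
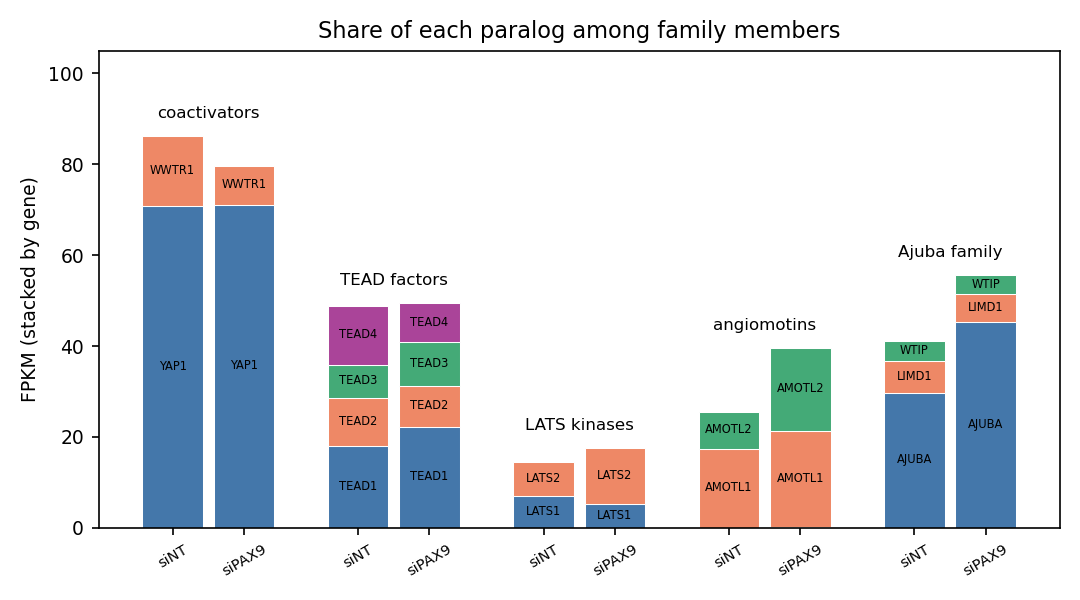
Stacked FPKM of each gene within 5 families of the pathway, in siNT and siPAX9, 1 combined value per group. The TEAD columns are nearly equal in height with a larger TEAD1 part in siPAX9, the WWTR1 part is smaller in siPAX9, and the AMOTL2, LATS2 and AJUBA parts are larger. AMOT is too low to be seen.

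Of the secreted targets, CTGF (chr6:132269317-132272518, minus strand) had 1.54 FPKM in siNT and 3.72 FPKM in siPAX9, 2.42-fold higher in siPAX9 (log2 change 1.27). This was the largest log2 change among the 9 expressed members, but it started from a low level, and with 1 added to each FPKM it was 0.89, below 2-fold. A lncRNA, LINC01013, is annotated on the opposite strand across the CTGF locus. CYR61 (chr1:86046444-86049648, plus strand) had 4.51 FPKM in siNT and 8.77 FPKM in siPAX9, 1.95-fold higher (log2 change 0.96). CYR61 therefore lay just under the 2-fold limit, and centring on the median of symbols with at least 1 FPKM in both groups put it just over (1.04). In both groups CYR61 was the more abundant of the pair, at 2.93 times the FPKM of CTGF in siNT and 2.36 times in siPAX9.

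ANKRD1 (chr10:92671857-92681032, minus strand) was barely detected, with 0.00764 FPKM in siNT and 0.0788 FPKM in siPAX9. The table marks its row as having too few reads for a test, so its ratio, a log2 change of 3.37, was not read further and ANKRD1 was left out of the counts below. A CCN family member outside the 10 genes, WISP2, had 0.0770 FPKM in siNT and 2.99 FPKM in siPAX9. The other CCN genes, NOV, WISP1 and WISP3, stayed under 1 FPKM in both groups. Among the paralogs of ANKRD1, ANKRD2 had 0.365 FPKM in siNT and 5.83 FPKM in siPAX9. ANKRD23 had 1.38 FPKM in siNT and 1.96 FPKM in siPAX9. WISP2 and ANKRD2 thus differed by far more than 2-fold, each from under 1 FPKM in siNT.

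AMOTL2 (chr3:134074187-134094259, minus strand), an angiomotin that binds YAP and activates LATS2, had 8.14 FPKM in siNT and 18.2 FPKM in siPAX9. It was 2.24-fold higher in siPAX9 (log2 change 1.16) and stayed past 2-fold with 1 added to each FPKM (1.07). Its paralog AMOTL1 (chr11:94501508-94609918, plus strand), which also binds YAP, had 17.4 FPKM in siNT and 21.3 FPKM in siPAX9, a log2 change of 0.29. AMOT itself was under 0.1 FPKM in both groups (0.0112 and 0.0568). AMOTL1 had 2.14 times the FPKM of AMOTL2 in siNT and 1.17 times in siPAX9, so the pair came close to equal levels.

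LATS2 (chr13:21547176-21635722, minus strand), the kinase that phosphorylates YAP, had 7.48 FPKM in siNT and 12.3 FPKM in siPAX9, a log2 change of 0.72. The paralog LATS1 had 7.02 FPKM in siNT and 5.30 FPKM in siPAX9, a log2 change of -0.40. The 2 kinases were thus near equal in siNT, where LATS2 made up 51.6% of their summed FPKM, and LATS2 made up 69.9% in siPAX9. AJUBA (chr14:23440298-23451851, minus strand), a LIM adaptor that binds and inhibits LATS kinases, had 29.7 FPKM in siNT and 45.3 FPKM in siPAX9, a log2 change of 0.61. Its relatives LIMD1 (6.99 FPKM in siNT and 6.05 FPKM in siPAX9) and WTIP (4.32 and 4.26 FPKM) were close to their siNT level. Neither LATS2 nor AJUBA reached a 2-fold difference.

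**Figure D4:**
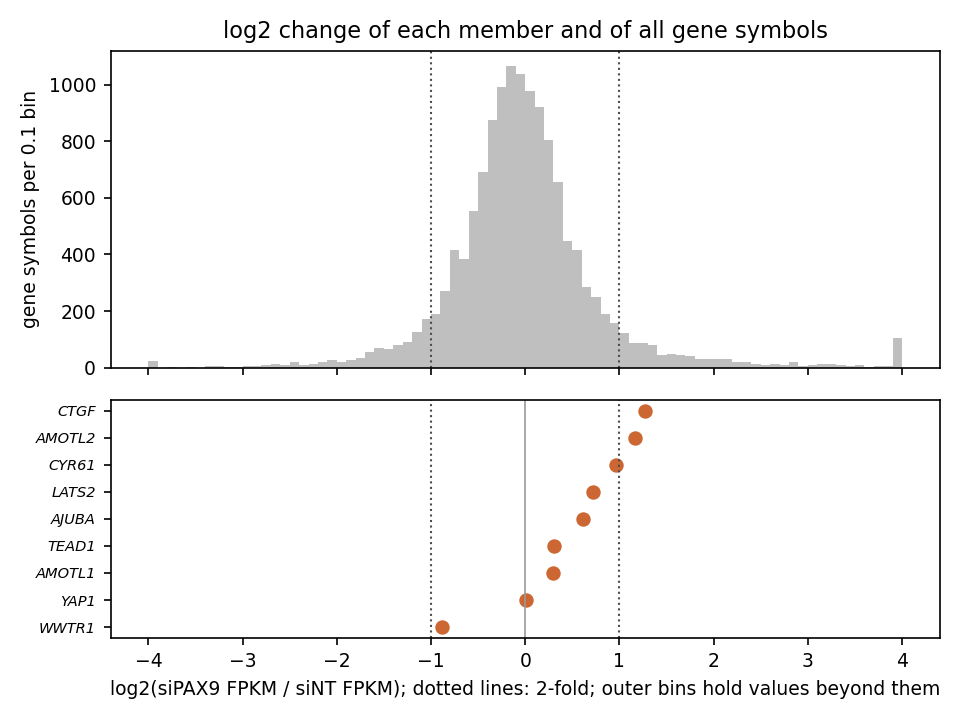
Upper panel, the number of gene symbols per bin of log2 change (siPAX9 over siNT) among symbols with at least 1 FPKM in the higher group, without symbols listed at 0 in 1 group. Lower panel, the log2 change of the 9 expressed members on the same axis, with dotted lines at 2-fold. CTGF and AMOTL2 lie past the upper line, CYR61 lies just inside it and WWTR1 is alone on the lower side.

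Ordered by log2 change, the 9 genes with at least 1 FPKM in the higher group ran CTGF, AMOTL2, CYR61, LATS2, AJUBA, TEAD1, AMOTL1, YAP1 and WWTR1. Their median was 0.61, against -0.07 for the 13622 symbols. Of the 9, 8 were above 0, YAP1 by only 0.0081, whereas 6161 of the 13622 symbols were. CTGF and AMOTL2 were at least 2-fold higher (2 of 9 genes, beside 7.75% of all symbols) and 0 of 9 were at least 2-fold lower (7.22%). At a limit of 1.5-fold, CTGF, CYR61, AMOTL2, AJUBA and LATS2 were higher (5 of 9, beside 14.8%) and WWTR1 was lower (1 of 9, beside 17.0%). The background moved with the level of the genes. Of the symbols with a mean of 1 to 10 FPKM, where CTGF, CYR61 and LATS2 lie, 19.2% were at least 1.5-fold higher, and of those with a mean of 10 to 100 FPKM, where AMOTL2 and AJUBA lie, 8.58% were. YAP1, TEAD1, AMOTL1 and WWTR1 lay between -0.88 and 0.31. With 9 genes and no replicate values, these counts are a description and no test stands behind them. The members and the lists below were chosen with earlier results of these data known, so all symbols are not an independent background for them.

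The other genes of the Hippo pathway were counted in the same way. Of 25 kinases, scaffolds and upstream regulators, 23 passed the level filter, 2 were at least 2-fold higher in siPAX9 (beside 7.75% of all symbols) and 0 were at least 2-fold lower (beside 7.22%), with a median log2 change of 0.01. At 1.5-fold, 5 of the 23 were higher (beside 14.8%) and 0 were lower (beside 17.0%). STK38, an NDR kinase related to LATS, had 9.61 FPKM in siNT and 21.6 FPKM in siPAX9 (log2 change 1.17). FAT4, an atypical cadherin, had 0.312 FPKM in siNT and 1.13 FPKM in siPAX9, so it passed the filter through siPAX9 alone, and with at least 1 FPKM required in both groups 1 gene was higher. Among the core genes, STK3, the gene for the kinase MST2, had 5.05 FPKM in siNT and 8.77 FPKM in siPAX9 (0.79), while its paralog STK4 had 11.9 and 11.8 FPKM. The adaptors SAV1 (17.9 FPKM in siNT and 18.4 FPKM in siPAX9) and MOB1A (49.1 and 49.5 FPKM), the tumour suppressor NF2 (18.3 and 16.4 FPKM) and the phosphatase gene PTPN14 (43.7 and 42.2 FPKM) were near their siNT level. The upstream kinase gene MAP4K4, the most abundant of the list in siPAX9, had 43.1 FPKM in siNT and 54.1 FPKM in siPAX9.

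Vestigial-like proteins bind TEAD factors in competition with YAP. VGLL3 had 4.36 FPKM in siNT and 16.9 FPKM in siPAX9, 3.88-fold higher and the largest log2 change among genes of the TEAD and vestigial-like list with at least 1 FPKM in the higher group (1.96). VGLL4, which represses TEAD targets, had 17.6 FPKM in siNT and 20.9 FPKM in siPAX9. VGLL1 was listed at 0 in siNT and had 0.915 FPKM in siPAX9, and VGLL2 was listed at 0 in both groups. The list includes TEAD1, which is also a member. Of the 8 genes in the list, 6 passed the level filter and VGLL3 was the 1 past 2-fold, beside 15.0% of all symbols.

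A list of 22 other genes commonly described as YAP and TAZ targets held genes that differed in both directions. PTPN14 stands both in this list and among the upstream regulators above. Of the 21 that passed the level filter, 5 were at least 2-fold higher in siPAX9 (beside 7.75% of all symbols) and 3 were at least 2-fold lower (beside 7.22%), with a median log2 change of 0.37. At 1.5-fold, 8 were higher (beside 14.8%) and 5 were lower (beside 17.0%). The higher genes were F3 (tissue factor, 14.1 FPKM in siNT and 61.0 FPKM in siPAX9), EDN1 (endothelin, 1.83 and 10.8 FPKM), GADD45A (a growth arrest gene that is also a p53 target, 12.0 and 30.1 FPKM), CCDC80 (a matrix protein, 0.475 and 16.0 FPKM) and IGFBP3 (an IGF-binding protein, 0.0561 and 2.49 FPKM). CCDC80 and IGFBP3 were under 1 FPKM in siNT and passed the filter through siPAX9 alone, and with at least 1 FPKM required in both groups 3 genes were higher and 3 lower. The lower genes were BIRC5 (survivin, a mitotic gene as well, 18.0 FPKM in siNT and 4.22 FPKM in siPAX9), RBMS3 (6.38 and 3.02 FPKM) and FOXF2 (6.77 and 3.38 FPKM). RBMS3 and FOXF2 fell short of 2-fold after centring on the median. AREG, an EGF receptor ligand and the most abundant of the list in siNT, had 85.2 FPKM in siNT and 48.0 FPKM in siPAX9 (log2 change -0.83).

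**Figure D5:**
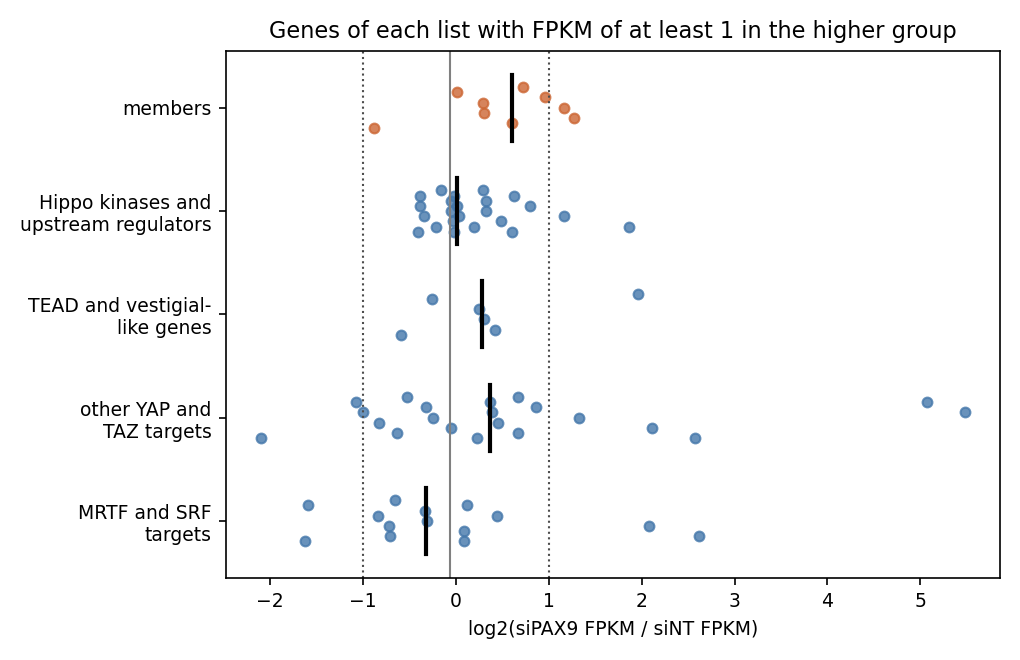
log2 change (siPAX9 over siNT) of each gene with at least 1 FPKM in the higher group, by list, with the list median as a thick bar, the median of all symbols as a grey line and 2-fold as dotted lines. The members sit mostly right of the grey line, the Hippo kinases and upstream regulators centre on 0.01, and the other YAP and TAZ targets spread from -2.09 to 5.48.

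Some matrix genes used as fibroblast markers were higher in siPAX9 together with CTGF and CYR61. Of 6 fibroblast markers, COL1A1 had 0.454 FPKM in siNT and 4.13 FPKM in siPAX9, and DCN had 5.85 and 37.9 FPKM. COL3A1 (listed at 0 in both groups) and COL1A2 (listed at 0 in siNT, 0.00337 FPKM in siPAX9) were at or near 0, and LUM and PDGFRA were under 0.1 FPKM in both groups. The 6 summed to 6.33 FPKM in siNT and 42.1 FPKM in siPAX9, and their part in the CTGF and CYR61 values was not tested. Of 6 endothelial and blood markers, 5 were under 0.1 FPKM in both groups, and PECAM1 had 2.58 FPKM in siNT and 0.495 FPKM in siPAX9.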

How the data were processed

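Poly(A)+ RNA of 6 samples was sequenced as single-end reads, 3 samples each of siNT and siPAX9. Per the submitters' processing notes and the study's methods, reads were aligned to UCSC hg19 with Bowtie 2 and quantified with Cufflinks in Partek Flow. The authors deposited 1 FPKM per locus and group for 41656 loci, with the 3 libraries of a group combined; how libraries were scaled to each other is not stated, and no depth per sample is given in the table. The authors' own fold changes, test statistics, p-values and q-values stand in the same table and were not used. From the FPKM, log2(siPAX9/siNT) was computed without a pseudocount with Python 3.11.15, numpy 2.4.6 and pandas 2.3.3. Table starts count from 0 and were raised by 1. A symbol on several rows was represented by the row with the highest mean FPKM, symbols below 1 FPKM in both groups were left out of counts, and a difference of at least 2-fold was counted. With 1 value per group, no test over replicates was run. The calculation and the motif search were tested on simulated data, as a check of the code only. The planted differences were well past the 2-fold limit, so low levels, differences near that limit and replicate noise were not covered.

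The members and gene lists were chosen with earlier results of these data known. Named genes are the 10 members, PAX9, paralogs of members, genes of each list past 2-fold, and up to 4 of the most abundant genes of a list. STK3, STK4, NF2, SAV1, SRF, TEAD and vestigial-like values beyond that rule were chosen after their values were seen. Sequences came from RefSeq (GRCh38.p14) and were placed on GRCh37, which has the coordinates of hg19, and annotation came from GENCODE release 44 on GRCh37. Plots were drawn with matplotlib 3.10.9. Alternatives were a pseudocount, another level filter, centring, other choices of rows and other fold limits.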

Additional observations from a re-analysis of the deposited data

How the results depend on the processing

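The table used here holds no value per sample, so no replicate was left out. No paired analysis was possible because the columns hold 1 combined value per group and carry no replicate number. With 1 added to each FPKM, 1 member (AMOTL2) was past 2-fold and CTGF was not (log2 change 0.89), and 1347 of all symbols were (681 higher, 666 lower). At a limit of 1.5-fold, 6 members, 28 genes of the other 4 lists (16 higher, 12 lower) and 4331 symbols were counted, and at 4-fold 0 members, 7 genes and 675 symbols (436 higher, 239 lower). Without a level filter 3 members (with ANKRD1) and 4041 symbols passed (2537 higher, 1504 lower), and with at least 1 FPKM in both groups 1285 did (552 higher, 733 lower), with 10 genes of the other 4 lists (5 higher, 5 lower) in place of 15 (10 higher, 5 lower). Centring on the median of symbols with at least 1 FPKM in both groups added 0.08 to each log2 change and brought CYR61 past 2-fold (1.04). In the alternatives run, the median log2 change of the members lay between 0.59 and 0.69. Adding 0.1 to each FPKM, summing rows, using rows with 1 symbol or rows marked as having enough reads left 2 members past 2-fold. The shorter core GGAAT was found for 6 of 8 members, beside 41.1% of all symbols. Low FPKM values such as those of CTGF and ANKRD1 are the least certain here, since the reads behind them are unknown. Of these 2, the row of CTGF was marked as having enough reads for a test and that of ANKRD1 was not.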

Other observations

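Genes driven by SRF and its actin-sensing coactivators MRTF were examined because CTGF and CYR61 are also known to respond to them. Of 15 such genes, 14 had at least 1 FPKM in the higher group, 2 were at least 2-fold higher in siPAX9 (beside 7.75% of all symbols) and 2 were at least 2-fold lower (beside 7.22%), with a median log2 change of -0.32. At 1.5-fold, 2 were higher (beside 14.8%) and 6 were lower (beside 17.0%). The genes past 2-fold on the higher side passed the filter through siPAX9 alone, and with at least 1 FPKM required in both groups 0 were higher and 2 lower. TAGLN, a smooth muscle actin-binding protein, had 0.869 FPKM in siNT and 3.66 FPKM in siPAX9, and the myosin light chain gene MYL9 had 0.324 and 1.98 FPKM. The genes at least 2-fold lower were TAGLN2, with 505.8 FPKM in siNT and 163.7 FPKM in siPAX9, and FHL1, a LIM protein, with 17.2 and 5.74 FPKM. The most abundant genes of the list were ACTB, with 1266 FPKM in siNT and 1348 FPKM in siPAX9, and ACTG1, with 925.7 and 566.0 FPKM. SRF itself had 15.3 FPKM in siNT and 9.25 FPKM in siPAX9, a log2 change of -0.72. In this list 6 of 14 genes were above 0, beside 6161 of all 13622 symbols.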
